A study of Mus musculus with 8 samples.

Results

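The mitochondrial ribosomal protein genes comprise 76 genes among the 18193 genes that the array names with a probe set of their own. They were chosen by symbol alone: every gene whose annotated symbol begins with Mrpl (large subunit, 47 genes) or Mrps (small subunit, 29 genes) followed by a digit, read from a probe set that names no other gene. Together they hold 156 probe sets, and each gene is represented by the probe set with the highest mean over all 8 arrays. RefSeq lists 78 protein-coding genes with such symbols, and the other 2, Mrpl30 and Mrpl53, are matched only by probe sets that name several genes. All 76 genes had an intensity over 100 on at least 1 array, which is the intensity part of the filter in the study's methods, so none was lost to low signal. The detection calls those methods also required were not used here.

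Mitochondria carry their own ribosome, the mitoribosome, which translates the few mRNAs of mitochondrial DNA into core subunits of the respiratory chain and of ATP synthase. Its ribosomal RNAs are transcribed in mitochondria, but all its proteins are encoded in the nucleus, translated in the cytosol and imported. Some mitoribosomal proteins descend from bacterial ribosomal proteins, and others are found only in mitochondria.

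Total RNA of mouse neural stem cells (NSCs) derived from embryonic stem cells was hybridised to 8 Affymetrix GeneChip mouse genome arrays. The 4 non-irradiated (non-irr) samples and the 4 irradiated (irr) samples came from NSCs grown in Euromed-N medium with N2 supplement and 20 ng/ml each of EGF and FGF2. The irr cultures were exposed to 10 Gy of X-rays, given at 2 Gy/min for 5 min, were not passaged afterwards and were collected on day 7. No genetic modification is given for either group, and the methods name several parental stem cell lines, mostly E14Tg2a, so the line behind each array is not known here. The methods state that the irradiation experiment was done in quadruplicate, but not whether the 4 came from separate derivations or cultures, and p-values then measure only the spread between these samples. In such bulk samples, fewer cells of a type and less RNA per cell cannot be told apart.

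Between 2 arrays of a group, Pearson's r across the probe sets kept was 0.991 to 0.997, while pairs taken from both groups gave 0.912 to 0.923. Irr and non-irr NSCs separated along the first principal component (92.0% of the variance), and the irr arrays split in pairs, replicates 1 and 2 against 3 and 4, along the second (3.68%). Of the NSC markers, all 9 with a probe set were past the filter, with 5 higher and 2 lower in irr NSCs. Pax6 (-0.54) and Msi1 (-0.17) were lower, Sox2 (0.23) and Vim (0.16) were among the higher genes, and Nes (0.07) and Olig2 (-0.13) were not called. By real-time PCR the study reported all of these transcripts lower in irr NSCs, and it also reported less Nestin, SOX2, PAX6 and OLIG2 protein. Of the neuron markers 5 of 6 were past it, with 3 lower (Tubb3, -0.67) and 1 higher. Past the filter were also 3 of 5 oligodendrocyte markers, none of them called, 2 of 6 microglia markers, of which P2ry12 was higher by 0.52, 2 of 6 endothelial markers, both lower, and 2 of 6 pluripotent cell markers, neither called. The defining markers Mog and Mag, Aif1 and Cx3cr1, Cdh5 and Pecam1, and Pou5f1 and Nanog of these lists lay below it on every array. Of the 9 astrocyte markers 7 were higher and 2 lower. Their summed intensity was 18133 to 19218 in non-irr and 36203 to 39414 in irr NSCs. Gfap, the classical marker, was one of the lower genes, but its means of 6.80 and 6.62 lay at the intensity cut of 6.64. The study itself reported Gfap induced in irr NSCs by real-time PCR, and its protein by western blot and immunofluorescence. Of the 6 mesenchymal markers the 3 past the filter were higher and the defining markers Col1a1, Col1a2 and Pdgfrb lay below it, and the summed intensity of all 6 was 1048 to 1097 and 2765 to 2953. The gap between the 3′ and the 5′ probe sets of the actin control, a measure of RNA integrity, was 0.22 to 0.29 on the log2 scale in non-irr and 0.42 to 0.58 in irr NSCs, while that of Gapdh overlapped between the groups. These markers and the actin gap moved with the groups, as the genes below did, and their part in the results was not tested.

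Mitoribosomal protein transcripts were lower in irr than in non-irr NSCs across both subunits, by modest amounts. With limma and an adjusted p under 0.05 over all probe sets, 69 of the 76 genes were lower, 1 was higher and 6 were not called. Among all 11372 genes tested, 37.1% were lower and 40.2% were higher. Among the 7063 genes at least as bright as the dimmest mitoribosomal gene, 39.5% were lower. The median log2 fold change of the 76 genes was -0.55 (quartiles -0.70 and -0.31), beside 0.01 for all genes tested. Few changes were large, since 36 of the 69 lower genes fell by less than 1.5-fold and only Mrpl12 and Mrps27 fell at least 2-fold, where 6.17% of all genes did. The members and the lists used here were picked with earlier results of these data known, so their counts are given as a description. Non-irr and irr values overlapped in 7 of the 76 genes. The same share over all genes was not counted, so groups lying apart are given below as a description too, and not as a trait of these genes.

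The large and the small subunit are given apart, and the difference between their counts was not tested. In the large subunit, 45 of 47 genes were lower, none was higher, and the median was -0.54 (range -1.04 to 0.10). In the small subunit, 24 of 29 genes were lower, 1 was higher, and the median was -0.55 (range -1.07 to 0.75). The shift was present on every irr array: the median difference of the large subunit genes from the non-irr mean was -0.52, -0.52, -0.45 and -0.52 on irr replicates 1 to 4, against -0.06 to 0.07 on the non-irr arrays. For the small subunit genes it was -0.62, -0.57, -0.42 and -0.58, against -0.05 to 0.08. Irr replicate 3 had the smallest shift in both subunits.

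**Figure D1:**
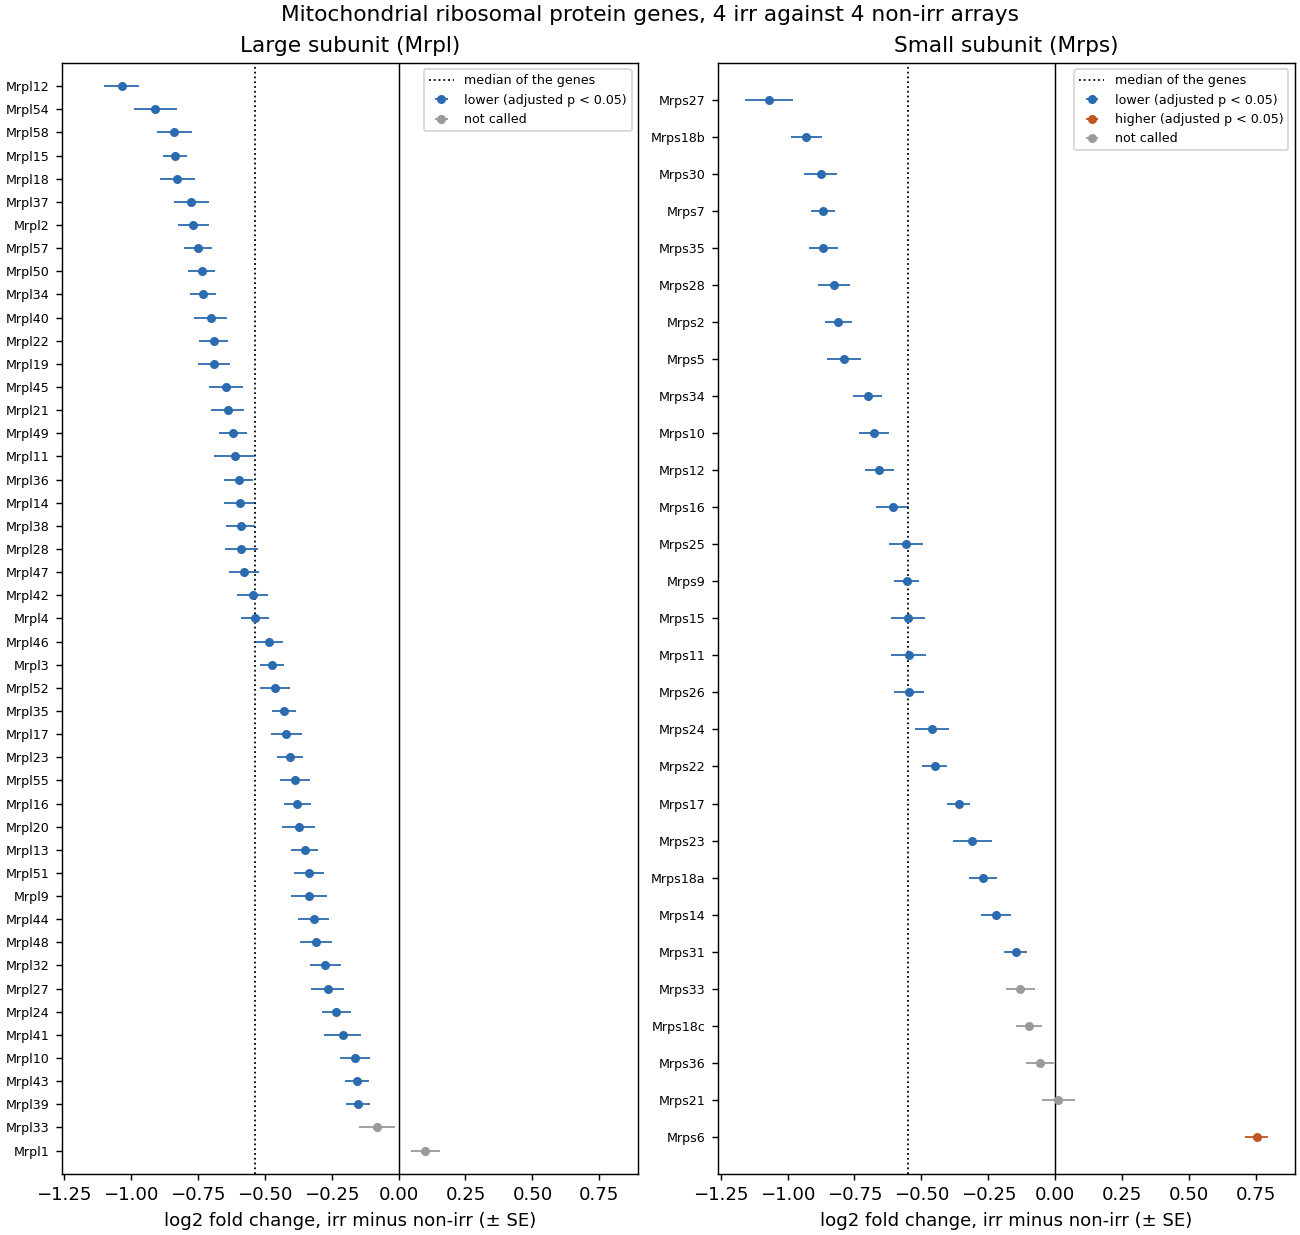
Log2 fold change (irr minus non-irr, x axis) of each mitoribosomal protein gene, ordered within the large subunit (left, 47 genes) and the small subunit (right, 29 genes), with the standard error of limma's fit; the dotted line is the median of the genes. Blue points are the 69 genes lower in irr NSCs, the orange point is Mrps6, and grey points are the 6 genes not called.

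Symbols do not always tell the subunit. The proteins of Mrps30 and Mrps18a sit in the large subunit of the mammalian mitoribosome. That of Mrps36 is an adaptor of the 2-oxoglutarate dehydrogenase complex and no part of the ribosome. Where genes are called mitoribosomal by symbol, as in the counts of 76 genes, Mrps36 is included. Sorted by structure, 47 of 49 large subunit genes were lower with a median of -0.54, and 22 of 26 small subunit genes were lower with a median of -0.55. Mrps30 fell by 0.88 on the log2 scale (SE 0.06, limma, adjusted p = 7.4e-07) and Mrps18a by 0.27 (SE 0.05, adjusted p = 0.0012), the latter no longer called with arrays centred on reference genes (-0.10). Mrps36 measured 10.80, 10.75, 10.91 and 10.68 on the non-irr arrays and 10.73, 10.74, 10.71 and 10.74 on the irr arrays. These groups overlapped, and the difference of -0.06 was not called (adjusted p = 0.36, limma) and turned to 0.12 with arrays centred on reference genes. By evolutionary origin, 39 of 44 genes with a bacterial homologue were lower with a median of -0.55, and 30 of 31 mitochondrion-specific genes were lower with a median of -0.55, a difference in counts that was not tested.

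Among large subunit genes the greatest decrease was that of Mrpl12, the protein of the flexible stalk that receives translation factors. Its log2 intensity was 12.26, 12.18, 12.31 and 12.15 in non-irr and 11.04, 11.16, 11.32 and 11.24 in irr NSCs. The groups were well apart, and the difference was -1.04 (SE 0.07), or 2.05-fold lower (limma, adjusted p = 4.1e-07). Mrpl10, which anchors that stalk to the ribosome, differed far less, from a mean of 10.90 to one lower by 0.16 (SE 0.06, adjusted p = 0.0225, limma), and its groups overlapped. That call was lost under 7 of the alternatives other than the 1.5-fold and 2-fold thresholds, which it also missed, and centring on reference genes turned its sign (0.01). Mrpl58, also known as Ict1, is a peptidyl-tRNA hydrolase that frees stalled mitoribosomes and is itself built into the large subunit. It measured 11.54, 11.41, 11.69 and 11.53 in non-irr and 10.64, 10.66, 10.78 and 10.73 in irr NSCs. No irr value reached the non-irr values, with a difference of -0.84 (SE 0.07, adjusted p = 1.5e-06, limma).

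The other large subunit genes with the greatest decreases were Mrpl54 (-0.91), Mrpl15 (-0.84), Mrpl18 (-0.83), Mrpl37 (-0.77), Mrpl2 (-0.77) and Mrpl57 (-0.75), all as log2 fold changes. Mrpl2, Mrpl15 and Mrpl18 are relatives of bacterial ribosomal proteins, with Mrpl2 close to the catalytic centre, whereas Mrpl37, Mrpl54 and Mrpl57 belong to the mitochondrion-specific set. Their standard errors ran from 0.05 to 0.08. In none of the 6 did the groups overlap, as in most mitoribosomal genes. Transcripts at the other end of the order hardly differed. Mrpl33 differed by -0.08 (SE 0.07, adjusted p = 0.29, limma). Mrpl1, of the L1 stalk beside the tRNA exit site, measured 8.49, 8.58, 8.70 and 8.51 in non-irr and 8.66, 8.68, 8.67 and 8.67 in irr NSCs. The irr values lay inside the non-irr range, with a difference of 0.10 (SE 0.05, adjusted p = 0.11, limma).

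Within the small subunit the greatest decrease was that of Mrps27, a mitochondrion-specific protein with pentatricopeptide repeats. Its values were 9.33, 9.21, 9.48 and 9.34 in non-irr and 8.08, 8.15, 8.40 and 8.44 in irr NSCs. The groups did not overlap, irr replicates 1 and 2 were the lowest, and the difference was -1.07 (SE 0.09), or 2.10-fold lower (adjusted p = 2.8e-06, limma). Mrps7, which lines the tRNA exit site in the head of the subunit, measured 11.77, 11.76, 11.82 and 11.71 in non-irr and 10.89, 10.84, 10.96 and 10.90 in irr NSCs. All irr values lay below all non-irr values, by 0.87 on average (SE 0.05, adjusted p = 1.0e-07, limma). Mrps35 differed by -0.87, and Mrps28, a relative of bacterial protein S1, by -0.83. Mrps12, a protein of the decoding centre, fell by 0.66 on the log2 scale (SE 0.05, adjusted p = 2.4e-06, limma).

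The 3 Mrps18 paralogs are named after bacterial protein S18. Mrps18c holds the place of S18 in the mitoribosome, and Mrps18a and Mrps18b, which sit elsewhere, are counted above as mitochondrion-specific. Mrps18b measured 10.47, 10.41, 10.58 and 10.47 in non-irr and 9.46, 9.49, 9.66 and 9.60 in irr NSCs, a difference of -0.93 (SE 0.06, adjusted p = 3.6e-07, limma) with no overlap. Mrps18a, given above, was lower by 0.27 on the log2 scale. Mrps18c measured 11.81, 11.86, 11.89 and 11.76 in non-irr and 11.68, 11.77, 11.77 and 11.71 in irr NSCs, with overlapping groups and a difference of -0.10 (SE 0.05, adjusted p = 0.0828, limma). Whether these 3 values differ from each other was not tested. The other small subunit genes that were not called were Mrps21, with a difference of 0.01 (SE 0.06) and overlapping groups, and Mrps33, with one of -0.13 (SE 0.05, adjusted p = 0.05003, limma), whose groups did not overlap.

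Mrps6 was the only mitoribosomal gene that was higher in irr NSCs by its brightest probe set. It encodes a relative of bacterial protein S6. Its log2 intensity was 12.81, 12.73, 12.74 and 12.73 in non-irr and 13.51, 13.44, 13.53 and 13.53 in irr NSCs. The groups lay far apart against a spread of 0.04 within each (SD, n = 4), and the difference was 0.75 (SE 0.04), or 1.69-fold higher (adjusted p = 1.9e-07, limma). Its second probe set rose by 0.76 (SE 0.05, adjusted p = 2.8e-07, limma).

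**Figure D2:**
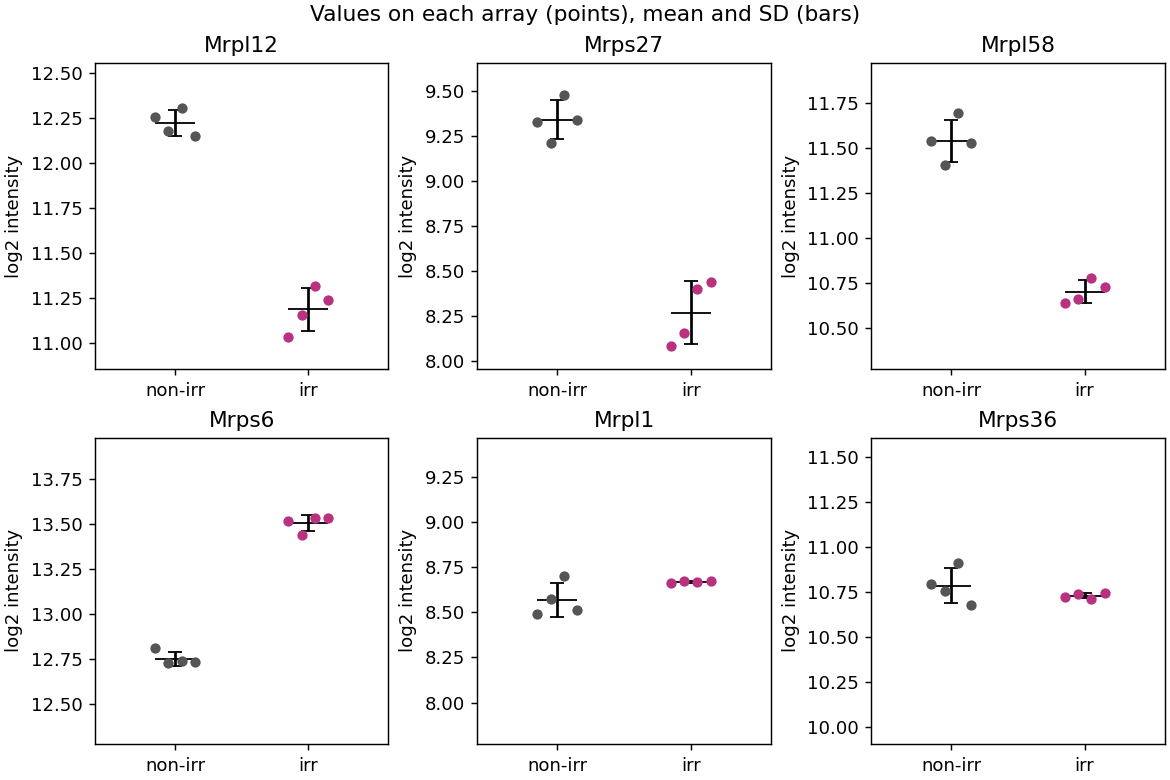
Log2 intensity (y axis, the same span in each panel) of 6 of the genes chosen by symbol on each of 4 non-irr and 4 irr arrays, with mean and SD as bars. Mrpl12, Mrps27 and Mrpl58 lie lower in all irr samples, Mrps6 lies higher in all of them, and the groups of Mrpl1 and Mrps36 overlap.

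In the RefSeq genes of GRCm38.p6, Mrps6 overlaps Slc5a3, the gene of a sodium-coupled myo-inositol transporter, on the same strand, and the start sites of the genes are 14 bases apart. The brightest probe set of Slc5a3 measured 11.64, 11.92, 11.80 and 11.82 in non-irr and 13.38, 13.33, 13.19 and 13.27 in irr NSCs. That was a difference of 1.497 (adjusted p = 3.3e-08, limma) with no overlap between groups. Another probe set of Slc5a3 was higher by 0.77 (adjusted p = 0.0411, limma), with overlapping groups. Probe positions were not used here, so it is uncertain which transcripts of the overlapping pair each probe set reads, and the value of Mrps6 is to be read with that limit.

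Promoters were compared because nuclear genes of mitochondrial proteins often share binding sites for NRF1 and for GABP of the ETS family. Of the 76 genes 67 were found in the RefSeq promoter table of GRCm38.p6, with 73 promoters, and the 250 bases before each start were searched on both strands for 4 motifs, none of which contains another. The NRF1 core TGCGCA stood in 19 of the 73 (26%), beside 6.43% of all 32851 promoters. The ETS motif CCGGAAGT stood in 10 (13.7%, beside 2.88%), the YY1 motif AAGATGGCG in 2 (2.74%, beside 0.606%) and the E-box CACGTG in 7 (9.59%, beside 6.02%). None of the 4 stood in any promoter of 34 genes. The 18 genes with the NRF1 core had a median log2 fold change of -0.41 and the 49 without it -0.55, and 17 of the 18 were lower. For the ETS motif the medians were -0.39 in 10 genes with it and -0.55 in 57 without. The other motifs ran the other way, with medians of -0.60 in 5 genes with the E-box and -0.48 in 62 without, and of -0.57 in 2 genes with the YY1 motif and -0.47 in 65 without. A match of letters is a description of the sequence and does not show that a factor binds there. The promoters set beside these were not matched to them for base composition.

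The bases just before the start are shown for the gene that rose, for the genes with the greatest decrease of each subunit, and for Mrpl58, with matched motifs in capitals. All 4 are on the plus strand of GRCm38.p6.
Mrps6 (chr16:92058216-92058335): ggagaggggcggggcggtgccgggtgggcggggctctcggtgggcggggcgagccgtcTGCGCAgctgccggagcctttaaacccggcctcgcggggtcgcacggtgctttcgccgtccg
Mrps27 (chr13:99344686-99344785): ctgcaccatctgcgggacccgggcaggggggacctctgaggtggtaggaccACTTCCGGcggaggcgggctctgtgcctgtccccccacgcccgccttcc
Mrpl58 (chr11:115403632-115403751): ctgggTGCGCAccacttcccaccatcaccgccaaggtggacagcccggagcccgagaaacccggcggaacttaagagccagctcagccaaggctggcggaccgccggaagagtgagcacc
Mrpl12 (chr11:120484517-120484636): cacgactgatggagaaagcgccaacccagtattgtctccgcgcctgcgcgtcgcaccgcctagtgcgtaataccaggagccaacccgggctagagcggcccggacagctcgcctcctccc
The NRF1 core began 62 bases before the start of Mrps6, which rose, and 115 bases before that of Mrpl58, which fell. Mrps27 held the ETS motif on the other strand, 49 bases before its start, and Mrpl12 held none of the motifs searched.

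Some mitoribosomal genes also share a start region with another gene, and the share of all genes that do so was not counted. For 22 of the 67 genes another RefSeq gene started within 300 bases, on the opposite strand in 21 of these pairings and on the same strand only for Mrps6 and Slc5a3. Mrpl46 and Mrps11, whose starts are 42 bases apart, were both lower, by 0.48 and 0.55 on the log2 scale. Mrps12 was lower alongside Sars2, the mitochondrial seryl-tRNA synthetase (-0.63, adjusted p = 4.4e-06, limma), and Mrpl18 alongside Tcp1, a subunit of the cytosolic chaperonin (-0.69, adjusted p = 5.6e-07). Mrpl57 was paired with Ska3, of the mitotic spindle and kinetochore, which differed by -2.20 (adjusted p = 6.1e-09, limma). Other pairs ran in opposite directions: Mrpl48 was lower by 0.31 and its neighbour Rab6a, a Golgi GTPase, was higher by 0.84 (adjusted p = 1.6e-07, limma). Of the 17 measured neighbours outside the mitoribosome, 10 were lower, 5 higher and 2 not called, with a median of -0.29. Among all genes tested 37.1% were lower, and the difference was not tested.

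The proteins of the mitoribosome that carry other symbols followed the same direction. All 4 that were measured were lower in irr NSCs: Gadd45gip1, a large subunit protein also known as CRIF1 (-0.99, adjusted p = 1.7e-06), and the small subunit proteins Chchd1 (-0.68, adjusted p = 1.8e-06), Ptcd3 (-0.55, adjusted p = 8.4e-06) and Dap3 (-0.46, adjusted p = 2.2e-05; all limma). Of 30 genes of mitoribosome assembly and rRNA modification, 23 were lower, 3 higher and 4 not called, with a median of -0.36. With arrays centred on reference genes these were 16 and 4, with a median of -0.19. Rcc1l and Noa1, both needed to build the mitoribosome, fell by 1.05 and 1.01 on the log2 scale, and Fastkd2, which binds the 16S rRNA, fell by 0.67.

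Further steps of mitochondrial translation were lower in most genes, with smaller medians. Of 13 translation factors and related proteins, 9 were lower and 1 was higher (median -0.32). The related proteins are Oxa1l, Lrpprc, Slirp and Mtfmt. The greatest decreases were those of Tsfm (-0.77), the exchange factor of the mitochondrial elongation factor Tu, and of the elongation and recycling factors Gfm1 (-0.62) and Gfm2 (-0.54). The initiation factor Mtif3 was higher by 0.34. Of 20 genes that charge mitochondrial tRNAs, 18 were lower and none higher (median -0.41). These are aminoacyl-tRNA synthetases and the amidotransferase subunits Qrsl1, Gatb and Gatc. The greatest decreases were those of the synthetases Yars2 (-1.16), Kars (-1.13) and Gars (-0.83), of which Kars and Gars also serve the cytosol. Of 13 genes of mitochondrial DNA transcription and replication, 10 were lower and 1 was higher (median -0.29), among them the transcription factor Tfam (-0.57), the nuclease Mgme1 (-0.44) and the kinase Tk2, which was higher by 0.50. Of 12 regulators of mitochondrial gene expression, 6 were lower and 3 higher. Pprc1, a coactivator of NRF1, fell by 0.91 and Myc by 0.45, while Ppargc1a (PGC-1alpha) rose from 6.61, just under the intensity filter, to 9.26 (adjusted p = 2.0e-06, limma). Nrf1 itself was lower by 0.44 (adjusted p = 5.6e-04, limma), and Gabpa, the DNA-binding subunit of GABP, differed by 0.12 (adjusted p = 0.14). With arrays centred on reference genes, the translation factors and related proteins had 7 lower and 3 higher genes (median -0.15). The genes of tRNA charging then had 12 and 1 (median -0.24), and those of mitochondrial DNA transcription and replication 5 and 3 (median -0.12). The regulators had 5 and 6 (median 0.10).

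The cytosolic ribosome and the respiratory chain are given for comparison. Of 25 cytosolic ribosomal protein genes with a probe set of their own, 13 were lower, none higher and 12 not called, with a median of -0.13. Rpl14 (-1.38), which measured 10.80 in non-irr NSCs, and Rpsa (-0.51) had the greatest decreases. The median log2 intensity of these genes was 14.37, near the highest value of any probe set (14.98), beside 11.14 for the mitoribosomal genes. The part of brightness in the difference between the medians was not tested. Of 80 nuclear genes of oxidative phosphorylation subunits, 37 were lower, 17 higher and 26 not called, with a median of -0.09, from Cox6a2 (-0.87) to Cox8b (3.26), both tissue-specific subunits of cytochrome c oxidase. With the arrays centred on reference genes, the medians of these lists turned positive, to 0.04 for the cytosolic ribosome and 0.09 for oxidative phosphorylation. The median of all probe sets rose to 0.17 (from -0.01), whereas that of the mitoribosomal genes stayed below 0 at -0.37. Of the 6 reference genes, 3 were themselves lower, among them Pgk1 (-0.66) and Hprt (-0.38), 1 was higher and 2 were not called.

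**Figure D3:**
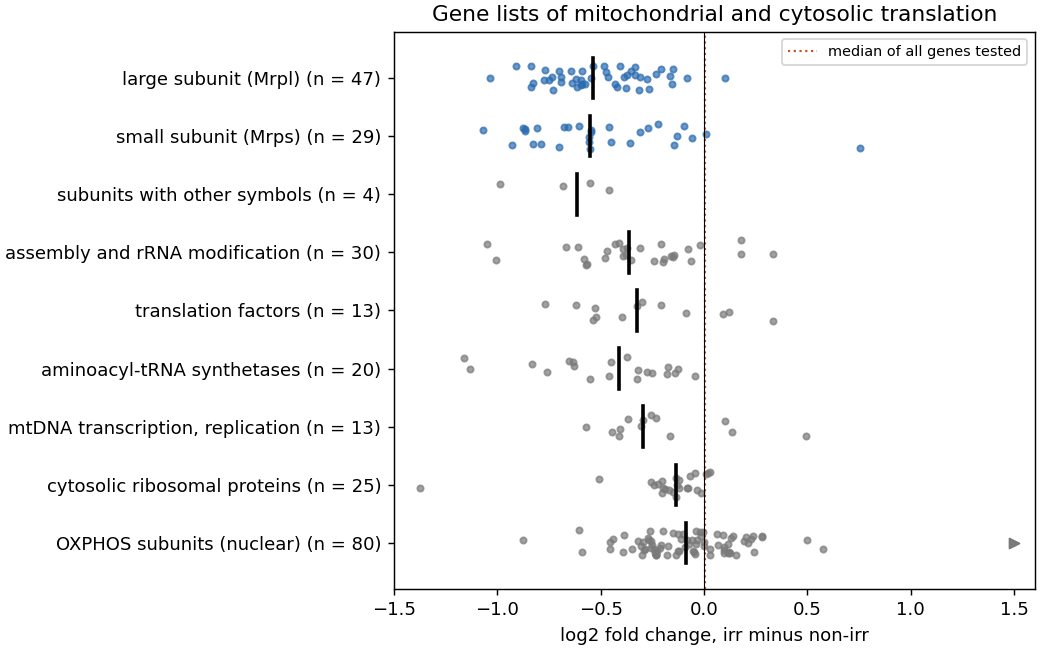
Log2 fold change (irr minus non-irr, x axis) of each measured gene (points) of the large and small subunit (blue) and of 7 other lists (grey), with the median of each list as a black bar and that of all genes tested as a dotted line near 0; the arrowhead is Cox8b at 3.26, beyond the axis. The medians of both subunits lie near -0.55. Those of assembly, of translation factors with related proteins and of synthetases with amidotransferase subunits lie between -0.41 and -0.32. Those of the cytosolic ribosome and of oxidative phosphorylation lie near 0, where the sign changes with centring on reference genes.

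The choice of probe set mattered for some genes. Of the 156 probe sets, 132 were past the filter, and 111 of these were lower, 5 higher and 16 not called (limma). Over the whole array, 16467 of 21919 probe sets were called in either direction, and those called lower were not counted apart. By gene, 37.1% of all genes tested were lower. In 44 genes a single probe set was past the filter. In the other 32, all probe sets were lower in 18 genes, lower or not called in 10, both lower and higher in 3, and all higher in 1, which was Mrps6. Mrpl15 had 7 probe sets past the filter, of which 6 were lower, between -1.07 and -0.30.

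The 3 genes with opposite calls were Mrpl35, Mrps14 and Mrpl57. The brightest probe set of Mrpl35 measured 11.23, 11.11, 11.20 and 11.10 in non-irr and 10.72, 10.71, 10.76 and 10.73 in irr NSCs (-0.43, adjusted p = 1.6e-05, limma), while another was higher by 0.29 (adjusted p = 0.0019) and the remaining one differed by -0.01. The brightest probe set of Mrps14 was lower by 0.22 (adjusted p = 0.0054, limma) and another was higher by 0.17 (adjusted p = 0.0112). For Mrpl57 the second probe set was higher by 0.15 (adjusted p = 0.0144, limma), against -0.75 for the brightest. Mrpl1 was the reverse case, where the brightest probe set was not called and another fell by 0.57 (adjusted p = 1.3e-04, limma). When probe sets of a gene were averaged in place of taking the brightest, 65 genes were lower: Mrpl35 (-0.05), Mrps14 (-0.01), Mrpl41 (-0.04), Mrpl48 (-0.12) and Mrps31 (-0.07) were no longer called, and Mrps33 (-0.13) was.

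**Figure D4:**
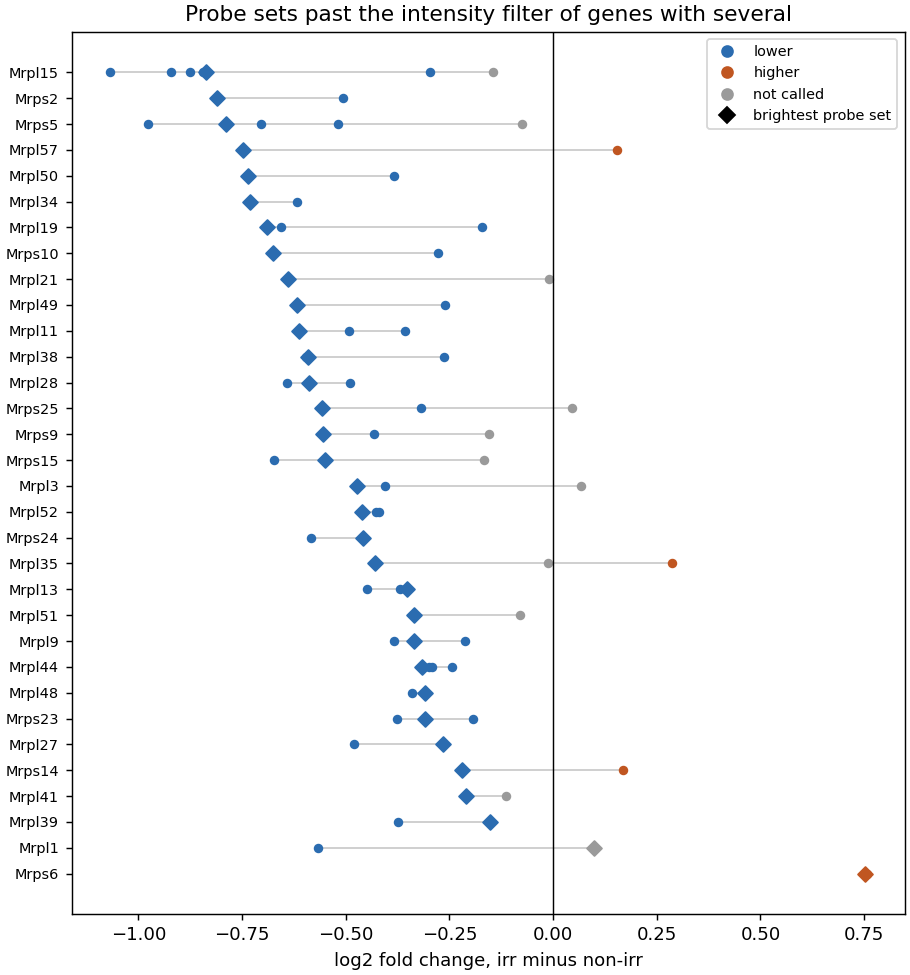
Log2 fold change (irr minus non-irr, x axis) of every probe set past the intensity filter in the 32 mitoribosomal genes with several, ordered by the brightest probe set (diamonds). Blue, orange and grey stand for lower, higher and not called; Mrpl57, Mrpl35 and Mrps14 hold both blue and orange points, and Mrps6 only orange ones.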

How the data were processed

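RNA of 4 non-irr and 4 irr NSC samples was measured on Affymetrix arrays, read with GCOS and normalized with RMA by the authors (versions not given in the sources used here). The deposited values are log2 intensities of 45101 probe sets as RMA gives them, from 2.48 to 14.98, with no filter applied. RMA quantile-normalizes probes before it summarizes them, so the arrays had similar distributions, with medians from 6.22 (irr replicate 4) to 6.24 (irr replicate 1). Probe sets were named from the platform annotation: 34958 carry 1 symbol, 932 several and 9211 none, and the latter 2 groups were left out of results by gene. Besides the 64 controls, probe sets that exceeded an intensity of 100 (6.64 on the log2 scale) on no array were removed, leaving 21919 for 11372 genes. Irr was compared with non-irr by limma 3.58.1 in R 4.3.3 (two-sided, moderated statistics) with Benjamini-Hochberg adjustment over all 21919, and an adjusted p under 0.05 was called. The 2-fold threshold of the methods was applied as an alternative. The number of arrays limits the precision, since arrays give no read depth. The fit was run on simulated data with few changed probe sets, each by at least 2-fold, unlike the many smaller changes here.

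The members and lists were chosen with earlier results of these data known. Genes named are the 8 large and 6 small subunit genes with the largest called changes in each direction, those changed at least 2-fold, those with probe sets called in opposite directions, Mrps30, Mrps18a, Mrps36, Mrpl12, Mrps12 and Mrpl58, and up to 3 of each other list. All genes not called, Mrpl10, the Mrps18 paralogs, the factors named beside the motifs, Mtif3, Rpsa, single marker genes, genes whose call changed under an alternative and the genes at neighbouring starts were added after their values were seen, as was the distance of 300 bases. Genes named without a value, to describe a list, were also added afterwards. Subunits by structure and protein roles are textbook knowledge. Alternatives were other intensity filters, scalings, variance settings and probe set rules, arrays left out, and a replicate block. Samples were not treated as pairs. Correlations of deviations between equal replicate numbers were 0.04, 0.38, -0.21 and 0.51. Those between unequal numbers were not computed, so whether the numbers pair the samples is not settled.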

Additional observations from a re-analysis of the deposited data

Results flagged for a closer look

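Of the 40 groups of 4 arrays examined for the named mitoribosomal genes, 1 held a value set apart from the rest: Mrps6 in non-irr NSCs, where replicate 1 measured 12.81 and replicates 2 to 4 measured 12.73, 12.74 and 12.73, so that the gap to the nearest array was 0.8337 of the range (above Dixon's critical value for 4 arrays). Chance alone flags about 1 in 20 groups. With each array left out in turn, Mrps6 was called higher every time, by 0.74 to 0.77 on the log2 scale (limma, adjusted p from 1.1e-06 to 2.1e-06).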

How the results depend on the processing

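Of the 69 genes called lower, 52 were lower, and 64 stayed below 0, under every alternative other than the 1.5-fold and 2-fold thresholds, under which 18 and 2 genes were lower. With each array left out in turn, 43 to 45 large and 24 to 25 small subunit genes were lower, with medians of -0.57 to -0.51 and -0.59 to -0.53, 1 small subunit gene was higher each time, and 0 to 1 large subunit genes were higher, the 1 being Mrpl1 without non-irr replicate 3 (0.14, limma, adjusted p = 0.0165). Centring the arrays on 6 reference genes moved the median of all probe sets from -0.01 to 0.17: the medians became -0.36 and -0.38, 35 large and 20 small subunit genes were lower, 1 large (Mrpl1) and 2 small ones (Mrps6 and Mrps21) were higher, Mrps14 (-0.05) and Mrps18a (-0.10) were no longer called, and Mrps36 turned to 0.12 without a call. Averaging the probe sets of each gene gave medians of -0.37 and -0.45 and 65 lower genes, with Mrpl35 (-0.05), Mrps14 (-0.01), Mrpl41, Mrpl48 and Mrps31 no longer called and Mrps33 called. With plain probe set identifiers alone, 40 large subunit genes had a median of -0.45, and the single one higher was Mrpl35, which turned to 0.29. Without irr replicates 1 and 2 together, the large subunit median was -0.48. Tested against a 1.5-fold change, 10 large and 8 small subunit genes were lower, and at least 2-fold, 1 large and 1 small one were lower and 0 small ones higher. The causes of these differences were not tested. Of the values of single named genes, 409 of 415 kept their direction and their side of the threshold.

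Whether replicate numbers pair the samples was not settled. The fit with a replicate block gave 45 lower large and 25 lower small subunit genes, with Mrps33 the gene added (limma, adjusted p = 0.0381). It gave 16550 calls over all probe sets, against 16467 without the block. Mrps33 lies at the threshold and was called lower in 7 of its 21 fits. Over the same alternatives, without the 1.5-fold test, the cytosolic ribosomal protein genes had 2 to 16 lower and 0 to 6 higher genes. Those of oxidative phosphorylation had 9 to 41 lower and 9 to 35 higher. The median of either list was above 0 only with arrays centred on reference genes, several of which had changed themselves. Values are normalized intensities of 4 arrays a group, so a change in total RNA per cell could not be seen.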
